A study of Mus musculus with 8 samples.

Results

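The nuclei described here were excitatory nuclei of the mouse cerebral cortex that carried transcripts of Stard8 and Ccbe1, a group labelled as layer 2/3 intratelencephalic (IT) neurons of the Stard8 and Ccbe1 type. They were chosen nucleus by nucleus from counts of unique molecular identifiers (UMIs, each standing for 1 captured RNA molecule). A nucleus was kept if at least 500 genes were detected in it and mitochondrial UMIs did not exceed 2%. A member had at least 1 UMI of Slc17a7, at most 1 of Gad1 and Gad2 together, at least 3 of Stard8 and Ccbe1 together, at most 2 of Otof, Glra3 and 6530403H02Rik together, and at most 2 of Slc1a3, Mog, Inpp5d and Flt1 together. The rule found 2150 members among 77185 kept nuclei (2.79%). They made up 5.11% of the 42073 excitatory nuclei, which met the same limits on Slc17a7, Gad and glial and vascular genes. Because measured counts chose the members, levels of the rule's genes, and all comparisons of members with other nuclei, are given as descriptions with no test.

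IT neurons are the glutamatergic neurons whose axons stay within the telencephalon, linking cortical areas and hemispheres. Those of layer 2/3 carry much of the traffic between areas, are marked by the homeodomain factors Cux1 and Cux2, and are commonly divided into several transcriptional types. Stard8 encodes a GTPase-activating protein with a lipid-binding START domain, and Ccbe1 a secreted matrix protein known from lymphatic growth. Among the other markers of the label, Calb1 encodes the calcium buffer calbindin, Nectin3 a cell adhesion molecule, and Rasgrf2 a calcium-regulated exchange factor for Ras. Chd8, the gene altered in this study, encodes a chromatin remodeller, and its loss of 1 copy is a known cause of autism in people.

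The study sampled cerebral cortex at P25 (postnatal day 25) from C57BL/6J mice, 4 wild type (WT) and 4 Chd8+/- (Chd8het). Each genotype had 2 males and 2 females, and an animal gave 1 library. WT and Chd8+/- animals formed pairs of the same litter and sex, per the labels, medial cortex was taken out before freezing, and nuclei of all 8 animals were isolated side by side. Replicate 1 of each group was single-indexed and replicate 2 dual-indexed, so replicate number and index type cannot be told apart. The Chd8 allele is not described in the sources used here. Members numbered 243 in WT male 1, 257 in WT male 2, 244 in WT female 1, 362 in WT female 2 and 269, 225, 257 and 293 in the Chd8het libraries in that order. Their median depth per library was 11282 to 14759 UMIs, and their UMIs summed to between 2909272 and 5451263 per library. No barcode of a member occurred among the members of another library, while 1389 kept nuclei (1.80%) had a barcode that another library also held. Chd8het male 2 stood apart in other excitatory nuclei. It held 910 nuclei of the Otof and Glra3 type (defined below) against 394 to 570 in the other libraries. Its nuclei rich in Rorb numbered 585 against 996 to 1935.

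The markers named in the label were checked first. Levels up to the genotype comparison are counts per M UMIs (CPM, with M for mega) of the summed members of a library, as mean ± SD over 8 libraries. Cux2 was at 254.4 ± 29.4 CPM in members and ranged from 204.4 to 300.1. It was at 185.4 ± 15 CPM in Otof and Glra3 type nuclei (at least 3 UMIs of Otof, Glra3 and 6530403H02Rik, fewer than 3 of Stard8 and Ccbe1). Rorb-rich nuclei (at least 3 UMIs of Rorb, fewer than 3 of either sum) had 201.8 ± 29.0 CPM. The remaining excitatory nuclei (fewer than 3 UMIs of Rorb and of either sum) had 95 ± 23.0 CPM, and non-neuronal nuclei 87.6 ± 10.1. Excitatory nuclei with at least 3 UMIs of both sums were in none of these kinds and are left out of the comparisons. The range of Cux2 in members lay above that of Otof and Glra3 type nuclei, which ended at 203.4 CPM, and overlapped that of Rorb-rich nuclei. Within each of the 8 libraries, Cux2 was higher in members than in Rorb-rich nuclei, by 0.204 to 0.565 in log2(CPM + 1). Rasgrf2 was at 341.4 ± 58.0 CPM in members against 261.6 ± 52.7 in Otof and Glra3 type and 158.5 ± 16.3 in Rorb-rich nuclei. Calb1 was at 83.1 ± 29.6, 68.6 ± 24.5 and 38.3 ± 9.74 CPM in the same order, and Nectin3 at 176.5 ± 60.1, 172.7 ± 72.3 and 98.7 ± 20.9. Calb1 and Nectin3 therefore separated members from Rorb-rich nuclei on average but overlapped widely with the Otof and Glra3 type. Within libraries, Calb1 was higher in members than in that type in all 8 (by 0.08 to 0.525 in log2(CPM + 1)), while Nectin3 went both ways.

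**Figure D1:**
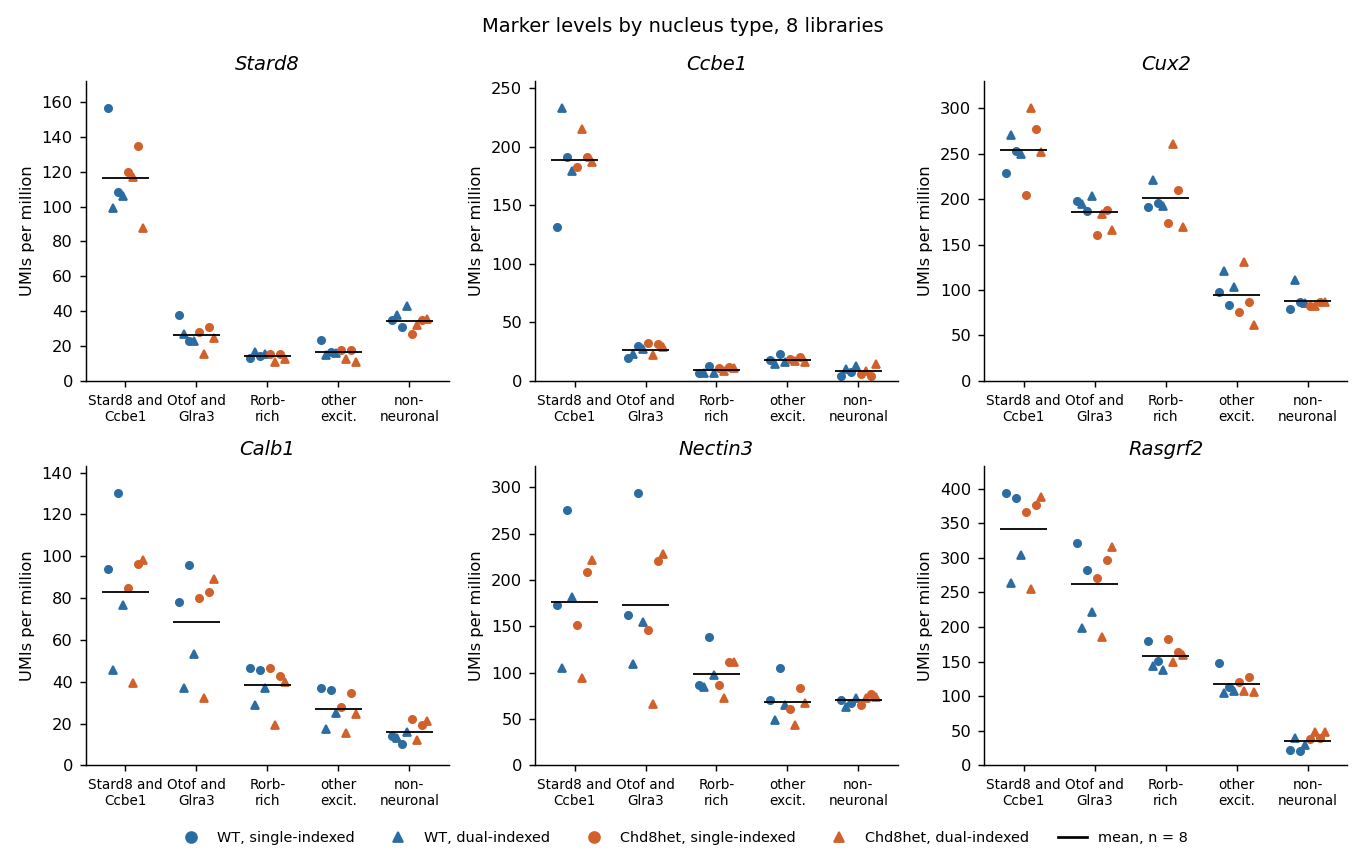
Levels of the 6 label markers (y axes, CPM) in 5 kinds of nuclei (x axis), 1 point per library, coloured by genotype, with circles for single-indexed and triangles for dual-indexed libraries and a line at the mean of 8 libraries. Stard8 and Ccbe1 chose the members, whose means are 116.2 and 188.8 CPM, while Cux2 and Rasgrf2 have their highest mean in members and Nectin3 is nearly level between members (176.5) and Otof and Glra3 type nuclei (172.7).

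Genes of other layers and cell types were not uniformly low in members. Foxp2, a transcription factor of layer 6 neurons, was at 23.3 ± 5.35 CPM in members against 197.6 ± 39.3 in the remaining excitatory nuclei, and Tle4, a corepressor of deep layers, at 45.2 ± 2.74 against 221.3 ± 31.1. Sox5, another deep-layer factor, was at 361.2 ± 28.6 CPM in members, below the remaining excitatory nuclei (585.1 ± 50.2) but above Rorb-rich nuclei (257.8 ± 39.8). Zfpm2 had the same order, with 197.3 ± 56.1, 504.1 ± 66.4 and 129.8 ± 29.1 CPM. Tbr1, a factor of layer 6, was low everywhere and overlapped, at 17.2 ± 3.08 CPM in members and 20.7 ± 2.26 in the remaining excitatory nuclei. Rorb, the layer 4 nuclear receptor, ran from 65.7 to 370.4 CPM in members (mean 218.8) against 692.7 to 1534.2 in Rorb-rich nuclei, which it chose. Mean Rorb was lower than in members in Otof and Glra3 type nuclei (116.3 CPM) and in the remaining excitatory nuclei (41.1). It was higher in non-neuronal nuclei, at 843.7 ± 104.3 CPM, so Rorb is not particular to layer 4 neurons here. The astrocyte gene Slc1a3, limited by the rule, was at 11.9 ± 3.5 CPM in members and 1226.3 ± 78.7 in non-neuronal nuclei. Upper-layer markers were thus present, while of these deep-layer genes Foxp2 and Tle4 were low and Sox5 and Zfpm2 lay between the other kinds of excitatory nuclei.

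Shares of nuclei with at least 1 UMI gave the same order, with non-neuronal nuclei as the level that free RNA and other cells give. A Cux2 UMI was found in 82.2% of members (80.2% to 84.8% over libraries), 64.7% of Otof and Glra3 type nuclei and 17.2% of non-neuronal nuclei. For Rasgrf2 these shares were 87.7%, 75.5% and 8.25%, for Nectin3 75.3%, 64.4% and 17.4%, and for Calb1 53.0%, 42.4% and 4.34%. Non-neuronal nuclei were shallower, with library medians of 2560.5 to 3178 UMIs, and Otof and Glra3 type nuclei had 9443 to 11995. At these depths the shares for members stood above non-neuronal nuclei for each of the 4 genes.

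The threshold of 3 UMIs divided a gradient. Excitatory nuclei within the limits on the Otof group with exactly 2 UMIs of Stard8 and Ccbe1 numbered 2195 (median 10467 UMIs), and members with exactly 3 numbered 1009 (median 11669). Just outside and just inside, Cux2 was at 225.1 ± 31.9 and 255.3 ± 30.2 CPM, Rasgrf2 at 264.1 ± 39.5 and 323.6 ± 59.7, Calb1 at 67.4 ± 21.2 and 79.6 ± 27.4, and Nectin3 at 155.1 ± 42.8 and 167.2 ± 55.0. From 0 UMIs to 5 or more, mean Rasgrf2 went from 101.8 to 370.8 CPM and mean Rorb from 523.1 to 182.7. Mean Hs3st4, a deep-layer heparan sulfate sulfotransferase, went from 886.4 to 122.2 CPM over the same range. Nuclei just outside were closer to those just inside than to nuclei with 0 UMIs for each of these 6 genes. Depth was greater along the same axis, from a median of 7805 to 14387 UMIs, and its part in the gradient was not tested.

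**Figure D2:**
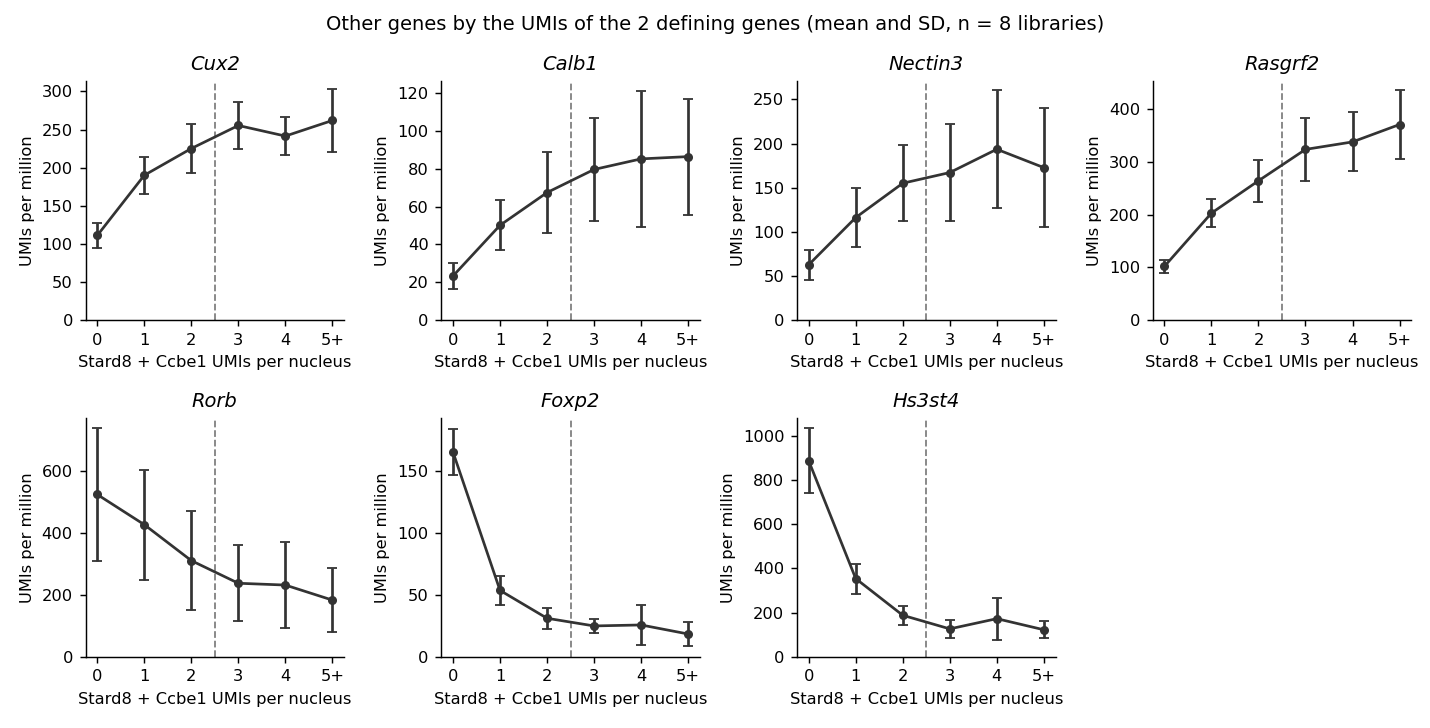
Levels of 7 genes (y axes, CPM, mean ± SD over 8 libraries) by the number of Stard8 and Ccbe1 UMIs in a nucleus (x axis, 0 to 5 or more), with a dashed line between 2 and 3 where membership begins. Cux2, Calb1, Nectin3 and Rasgrf2 rise and Rorb, Foxp2 and Hs3st4 fall in their means from 0 to 2 UMIs, before the threshold is reached.

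Members were set beside Otof and Glra3 type nuclei of the same libraries, gene by gene. Those nuclei were chosen by UMIs of 3 genes, at 430.4 ± 49.0 CPM for 6530403H02Rik, 84.7 ± 26.9 for Glra3 and 54.4 ± 11.8 for Otof. They also carried deep-layer genes, with Hs3st4 at 629.9 ± 176.8 CPM and Tle4 at 160.1 ± 26.7. Ccn2, known from layer 6b, was at 9.58 ± 3.4 CPM in them against 3.44 ± 0.815 in the remaining excitatory nuclei and 0.869 ± 0.593 in members. Of 6133 genes at a mean of at least 20 CPM in either type, 8.90% were higher and 13.5% lower in members in all 8 libraries. Cdh12, a cadherin, was at 1143.2 ± 97.7 CPM in members (946.3 to 1260.3) and 461.3 ± 58.8 in Otof and Glra3 type nuclei (344.4 to 515.4). Robo3, a receptor of axon guidance, was at 137.3 ± 20 against 56.7 ± 11.1 CPM, and Epha10, an ephrin receptor, at 173.7 ± 26.4 against 74.9 ± 20.9. The ranges of each of these 3 genes did not overlap between the types. By the smallest difference over the 8 libraries, the leading genes were Cdh12, Robo3, Cdh20, Prr16, Man2a1, Siae, Cpne9, Mcc, Gm2164, Tmem232, Afap1l1, Etnk2, Rims3, Ddit4l and Kcnh5. In the other direction, Svil, the actin-binding supervillin, was at 2.97 ± 1.19 against 50.6 ± 35.0 CPM, and Plcxd3, a phospholipase C-like enzyme, at 20.1 ± 6.26 against 100.1 ± 8.75. Glra2, Ndst4, Rai14, Vwc2l, Hs3st4 and A330015K06Rik were likewise lower in members in each library. In Rorb-rich nuclei Cdh12 was higher than in members (1444.3 ± 141.7 CPM), while Robo3 (60.9 ± 11.6) and Epha10 (114.2 ± 25.3) were lower.

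Against Otof and Glra3 type nuclei, more potassium channel genes were higher than lower in members. Over all 6133 genes, 8.90% were higher and 13.5% lower in all 8 libraries. Of 23 measured voltage-gated potassium channel and related genes, 8 were higher in members in all 8 libraries (among them Kcna2, Kcnc2, Kcnd2, Kcnh1, Kcnh5, Kcnh7 and Kcnq5) and Kcnn3 was lower, with a list median of 0.12 on the log2 scale against -0.04 over all 6133 genes. Kcnq5, a subunit of the slow M current, was at 3353.7 ± 239.3 CPM in members (3061.2 to 3809.0) and 1841.4 ± 224.7 in Otof and Glra3 type nuclei (1496.2 to 2133.1). Kcnh5, of the ether-a-go-go family, was at 315.1 ± 57.3 against 156.3 ± 29.6 CPM. Among 19 sodium and calcium channel genes, 6 were higher and 4 lower, and the calcium channel subunit Cacna2d3 was at 1376.2 ± 143.1 against 815.4 ± 111.4 CPM. In Rorb-rich nuclei Cacna2d3 was at 1576.9 ± 220.0 CPM and Kcnq5 at 2934.9 ± 168.4.

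Receptor, adhesion and guidance genes went both ways. The counts below stand beside 8.90% of all 6133 genes higher and 13.5% lower in members in all 8 libraries. Of 20 glutamate receptor genes, 6 were higher in members (among them Gria3, Gria4, Grin1, Grin2a and Grm7) and 10 lower, among them the kainate receptor genes Grik1, Grik2, Grik3 and Grik4. Grik3 was at 48.4 ± 18.9 CPM in members and 129.9 ± 47.8 in Otof and Glra3 type nuclei. Of 54 adhesion genes, 13 were higher and 15 lower. The contactin Cntn4 was at 2109.8 ± 225.6 against 1209.8 ± 144.5 CPM, while Cdh18 was at 440.1 ± 48.2 against 988.2 ± 79.6 and the teneurin Tenm1 at 220.0 ± 25.1 against 485.0 ± 54.2. Of 37 axon guidance genes, 4 were higher (Sema6d, Robo3, Epha10 and Efnb2) and 12 lower, including Sema3e, Nrp1, Robo1 and Dcc. Of 9 deep-layer genes, some of which Otof and Glra3 type nuclei carried at the levels given above, none was higher and 6 were lower, Foxp2 at 23.3 ± 5.35 against 96.1 ± 20.5 CPM. Of 18 upper-layer genes, 5 were higher (Cux1, Cux2, Lmo4, Rasgrf2 and Calb1) and 3 lower (Plxnd1, Epha3 and Nptx1), with a median of 0.08. Of 13 genes of layer 2/3 subtypes none was higher and 5 were lower in members (Adamts2, Cdh13, Trps1, Dpyd and Met), with a median of -0.32. Of 45 autism-associated genes, 4 were higher (Auts2, Dscam, Foxp1 and Shank3) and 12 lower, with a median of -0.04, the same as over all genes.

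Against Rorb-rich nuclei, 14.2% of 6136 genes were higher and 20.1% lower in members in all 8 libraries. Ntrk3, the receptor of neurotrophin-3, was at 929.7 ± 207.0 CPM in members (704.2 to 1226.5) and 335.8 ± 88.5 in Rorb-rich nuclei (219.8 to 455.3). Rgs6, a regulator of G protein signalling, was at 1695.2 ± 95.1 against 644.0 ± 52.3 CPM, and Gucy1a1, a subunit of the nitric oxide receptor, at 70 ± 16.6 against 21.8 ± 3.99. These 3 genes did not overlap between the types over the 8 libraries. Il1rapl2, a synaptic receptor of the interleukin-1 family, was at 138.5 ± 17.1 against 883.0 ± 96.4 CPM, the potassium channel Kcnk2 at 35.0 ± 7.15 against 205.0 ± 26.2, and Whrn at 7.73 ± 1.95 against 55.8 ± 11. Of 17 upper-layer genes 9 were higher in members and 4 lower, with a list median of 0.34 against -0.04 over all genes. Of 11 layer 2/3 subtype genes 5 were higher and 2 lower. Of 22 potassium channel and related genes 6 were higher and 6 lower, with Kcnh5 at 315.1 ± 57.3 CPM in members and 605.5 ± 70.2 in Rorb-rich nuclei. Of 21 glutamate receptor genes 9 were higher and 7 lower. The AMPA receptor gene Gria3 was at 1422.8 ± 140.8 against 630.2 ± 64.5 CPM, while Grik1 was at 29.0 ± 9.04 against 136.4 ± 35.1. Among 54 adhesion genes 11 were higher and 22 lower, and the postsynaptic adhesion gene Lrrtm4 was at 6763.6 ± 763.2 against 2804.8 ± 135.2 CPM. In Otof and Glra3 type nuclei Lrrtm4 was at 7585.9 ± 976.2 CPM and Gria3 at 1290.4 ± 158.3, nearer to members than to Rorb-rich nuclei.

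Members carried either or both of the genes that chose them. Stard8 alone was counted in 291 members (13.5%), Ccbe1 alone in 589 (27.4%) and both in 1270 (59.1%). Ccbe1-only members outnumbered Stard8-only members in 7 libraries. WT male 1 was the exception, with 24.3% Stard8-only and 12.3% Ccbe1-only members, against 9.22% to 13.8% and 21% to 37.0% in the others. In the 5 libraries with at least 30 members of each kind, label markers were lower in Ccbe1-only members. Cux2 was at 188.7 ± 48.1 CPM in Ccbe1-only, 271.4 ± 23.3 in Stard8-only and 261.8 ± 34.3 in both-marker members, and Rasgrf2 at 251.5 ± 69.4, 367.0 ± 94.1 and 372.7 ± 47.7. Cux2, Calb1, Nectin3 and Rasgrf2 were each lower in Ccbe1-only than in Stard8-only members in 5 of 5 libraries.

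The same 5 libraries showed which genes differed most steadily between these kinds of member. Higher in Ccbe1-only members were Galnt14 (120.1 ± 74.4 against 13.9 ± 10.6 CPM), the cadherin Cdh9 (162.4 ± 73.9 against 19.7 ± 12.6), the sarcoglycan Sgcd (376.6 ± 54.8 against 91.5 ± 31.5) and Bcl11b, a transcription factor of subcerebral neurons (54.9 ± 27.8 against 13.1 ± 12.2). Cwh43, Blnk, Kcnn3 and Rspo2 completed that list. Higher in Stard8-only members were Siae (91.5 ± 7.88 against 43.4 ± 12.5 CPM), Cables1 (58.4 ± 8.05 against 25.0 ± 5.29) and Gm16599 (474.6 ± 81.4 against 236.0 ± 60.3), with Pld5, 1700007F19Rik, Ankrd6, Ddit4l and Gsta3. Stard8-only members numbered 291 over all 8 libraries, and their per-library levels rest on few nuclei.

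Clustering of the members over 1491 variable genes gave 10 clusters, described by number with no test. The clusters differed in the label markers. Cux2 was between 242.4 and 497.1 CPM in 8 clusters and at 15.9 and 19.4 CPM in clusters 7 and 9, below the 95 CPM of the remaining excitatory nuclei. Cluster 7 (177 members) had 64.0 CPM of Rasgrf2, 386.8 of Galnt14 and 611.3 of Cdh9. Cluster 9 (52 members) had 55.5 CPM of Rasgrf2, 280.0 of Bcl11b and 24.7 of the subcerebral factor Fezf2, and its members were deep, with a median of 22000 UMIs. Clusters 7 and 9 held 229 members (10.7%), namely 24.8% of Ccbe1-only, 6.14% of both-marker and 1.72% of Stard8-only members. For these 229 nuclei the label was not borne out. Cluster 9 held 0.412% to 2.46% of the members of WT and 3.11% to 3.5% of those of Chd8het libraries, with no overlap between the genotypes. These shares rest on 1, 3, 6 and 7 nuclei in WT and 9, 7, 9 and 10 in Chd8het libraries, and in the other 9 clusters the genotypes overlapped. For cluster 7 these shares were 6.15% to 11.3% and 4.67% to 8.92%.

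The other clusters carried Cux2 and differed in further genes. Cluster 2 (364 members) had 629.6 CPM of Rorb and 678.2 of Kcnh5, and cluster 3 (341) had 31.7 of Rorb and 224.2 of the cation channel gene Trpc6, with the activity-regulated genes Bdnf and Nptx2 among its leading genes. Cluster 8 (92) had 499.3 CPM of Ccbe1 and 36.2 of Stard8, with 704.3 of the homeodomain factor Meis2. Its Cux1, at 137.0 CPM, lay within the range of the remaining excitatory nuclei (129.6 to 169.0). Each dual-indexed library gave this cluster 14 to 26 members and each single-indexed one 1 to 13. Cluster 5 (225) was led by Bcas1os2, Tcf7l2 and Bcas1, genes known from maturing oligodendrocytes, and had 510.7 CPM of Hs3st4, 451.8 of Rorb, 300.8 of Erbb4 and a median of 16320 UMIs. It had 242.4 CPM of Cux2 but 43.4 of Calb1, the lowest of the 8 clusters that carried Cux2. Predicted doublets made up 36.9% of cluster 5 and 0% to 9.62% of the other clusters. The label was thus in doubt for cluster 5 too. The numbers of genes that passed for genotype and for sex, and the gene-list counts in those comparisons, were therefore also made on the 1921 members (89.3%) outside clusters 7 and 9 and on the 1696 (78.9%) outside clusters 5, 7 and 9. Over all members 112 (5.21%) were predicted doublets, against 5.48% of kept nuclei.

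**Figure D3:**
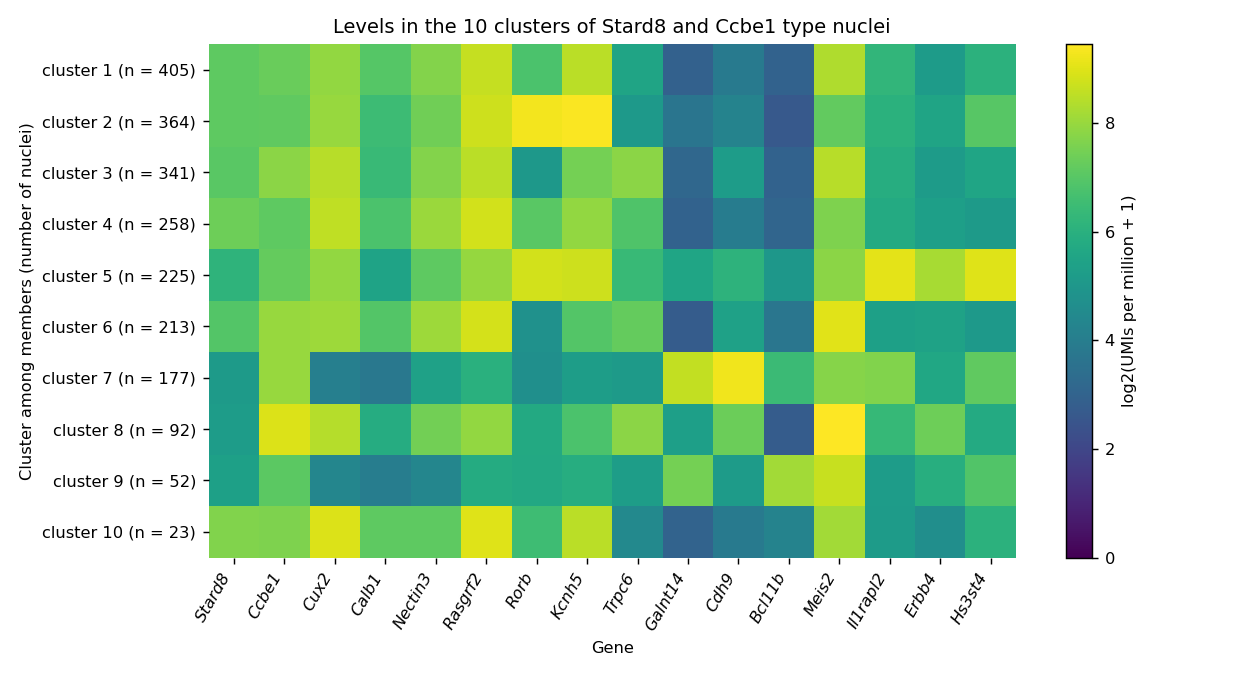
Heatmap of 16 genes (columns) in the 10 clusters of members (rows), coloured by log2(CPM + 1) of the summed members of a cluster over all libraries. Clusters 7 and 9 stand out by low Cux2 (15.9 and 19.4 CPM) and Rasgrf2, cluster 7 by high Cdh9, cluster 9 by high Bcl11b, and cluster 2 by high Rorb.

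The share of members among excitatory nuclei was compared between genotypes. It was 4.74% (95% Wilson interval 4.19% to 5.35%), 5.98% (5.31% to 6.73%), 4.48% (3.97% to 5.07%) and 6.37% (5.76% to 7.04%) in the WT libraries (male 1, male 2, female 1, female 2). In the Chd8het libraries it was 4.44% (3.95% to 4.99%), 4.23% (3.73% to 4.81%), 4.37% (3.88% to 4.93%) and 6.85% (6.13% to 7.64%) in the same order. These intervals cover counting error only. WT averaged 5.39% ± 0.923 and Chd8het 4.97% ± 1.25 (SD, n = 4 each), a difference of -0.417 percentage points (exact permutation p = 0.657, two-sided, 0.789 after adjustment over 12 such comparisons). The genotypes overlapped, the Chd8het library was higher in 1 of 4 pairs, and the difference was -0.201 points for replicates 1 and -0.634 for replicates 2. Males averaged 4.85% ± 0.781 and females 5.52% ± 1.27 (exact permutation p = 0.314, n = 4 each). Fewer members and less Stard8 or Ccbe1 RNA per nucleus cannot be told apart in such a share.

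In 3 of 4 groups the dual-indexed library had the larger share of members. The share was 5.86% ± 1.14 in dual-indexed and 4.51% ± 0.158 in single-indexed libraries (exact permutation p = 0.143, n = 4 each), and median UMIs per member were 13294.0 ± 1386.6 and 11885.1 ± 552.7 (p = 0.143 by the same exact test). Each nucleus was then thinned to 3000 UMIs and the rule's limits on named genes applied again to the thinned counts. The limits on detected genes and mitochondrial UMIs stayed on the full counts. Upper limits are easier to meet at this depth, so a nucleus over them at full depth could become a thinned member. Thinned members numbered 12 to 30 per library. Nuclei below that depth, 3236 excitatory nuclei and 4 members, were left out, and the rule then found 166 members among 24449 excitatory nuclei. The shares were 0.915% ± 0.290 and 0.514% ± 0.0986. This exact permutation p was 0.0286, the smallest that 4 against 4 libraries allow, and 0.343 after adjustment over 12 comparisons. The thinned share was 0.698% ± 0.374 in WT and 0.731% ± 0.247 in Chd8het libraries (exact permutation p = 0.857, n = 4 each). Median UMIs per member, 12690.1 ± 1061.6 in WT and 12489.0 ± 1548.4 in Chd8het libraries, did not separate the genotypes (exact permutation p = 0.743).

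Chd8 itself was measured in the members of every library. From here levels are CPM after scaling between libraries by the trimmed mean of M values (TMM), and log2 differences are Chd8het minus WT. Chd8 (chromosome 14, 52198151 to 52257780, GRCm38, minus strand, protein coding) was at 59.9, 79.9, 75.0 and 77.0 CPM in WT libraries (male 1, male 2, female 1, female 2) and at 84.3, 74.3, 71.0 and 80.5 in the Chd8het libraries in that order. The genotypes overlapped, and Chd8het was higher in 2 of 4 pairs. The means were 73.0 ± 8.94 and 77.5 ± 6.00 CPM, a log2 difference of 0.09 (SE 0.12, adjusted p = 1.0, edgeR quasi-likelihood test). Counts behind these values were 191 to 406 UMIs per library. Chd8 RNA was thus not lower in the members of libraries labelled Chd8het, and without WT male 1 the log2 difference turned to -0.006. Whether the mutant allele still gives reads is not described in the sources used here, so Chd8het below stands for the libraries labelled so.

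No gene passed the genotype test in the planned model of sex and genotype. Of 12396 genes tested, 0 (0%) had an adjusted p under 0.05 and 261 (2.11%) an unadjusted p under 0.05 with edgeR, and DESeq2 called 1, 5330434G04Rik. With a term for each of the 4 pairs of equal sex and replicate number, edgeR called 3 genes (0.0242%), and 787 (6.35%) had an unadjusted p under 0.05. WT and Chd8het libraries did not overlap for 221 genes (1.78%). The 3 genes called with pairs were 5330434G04Rik and Maml3, lower in Chd8het, and Zfp804b, higher.

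The long noncoding RNA 5330434G04Rik (X chromosome, 105348282 to 105391776, GRCm38, minus strand, overlapping Mir325) was called with pairs and did not overlap between the genotypes. It was at 91.0, 93.1, 100.5 and 80.4 CPM in the 4 WT libraries, ordered as above, and at 56.5, 37.5, 41.5 and 41.4 in the Chd8het ones. Every Chd8het library was below every WT library, and the means were 91.2 ± 8.28 and 44.2 ± 8.41 CPM. The log2 difference was -1.04 (SE 0.14, edgeR adjusted p = 0.377), and -1.05 (SE 0.12, adjusted p = 0.0132) with pairs. It was -0.97 over single-indexed libraries alone and -1.12 over dual-indexed ones. It passed in 12 of 37 settings, including 3 of 8 fits with pairs that left out 1 library, and its log2 difference stayed between -1.22 and -0.96 in all 37. Of those 3 fits, the ones without WT female 2 and without Chd8het female 2 drop the same pair.

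Maml3 (chromosome 3, 51685907 to 52105076, GRCm38, minus strand), which encodes a coactivator of Notch signalling, was at 204.2, 493.7, 246.1 and 473.5 CPM in the WT libraries and 138.0, 292.7, 143.9 and 316.3 in the Chd8het ones, in the same order. The genotypes overlapped, because dual-indexed libraries were high in both, but in each pair the Chd8het library was lower. The log2 difference was -0.67 in both fits, with SE 0.36 and an edgeR adjusted p of 1.0 without pairs, and SE 0.07 and 0.0132 with pairs. Zfp804b (chromosome 5, 6769010 to 7344756, GRCm38, minus strand), a zinc finger gene, was at 143.3, 206.2, 131.5 and 154.8 CPM in WT and 203.0, 374.4, 204.3 and 228.6 in Chd8het libraries. Chd8het was higher in each pair, and the ranges overlapped at WT male 2. Its log2 difference was 0.66 (SE 0.19, edgeR adjusted p = 1.0) without pairs and 0.64 (SE 0.08, adjusted p = 0.0342) with pairs. Maml3 passed in 10 and Zfp804b in 6 of 37 settings, and each in 2 of 8 fits with pairs that left out 1 library. Those 2 fits, without WT female 2 and without Chd8het female 2, drop the same pair and called the same 10 genes. The log2 difference of Maml3 ran from -0.94 without Chd8het female 2 to -0.37 without WT male 2 and -0.12 with the rule applied after thinning. That of Zfp804b ran from 0.35 with pairs outside clusters 5, 7 and 9, and 0.44 without Chd8het male 2, to 0.89 with the rule after thinning. On the 1921 members outside clusters 7 and 9, the fit with pairs called 5330434G04Rik, Maml3, Dscaml1 and 4930415C11Rik, all lower in Chd8het, and not Zfp804b. On the 1696 outside clusters 5, 7 and 9 it called 5330434G04Rik, Maml3 and Dscaml1, again lower in Chd8het.

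**Figure D4:**
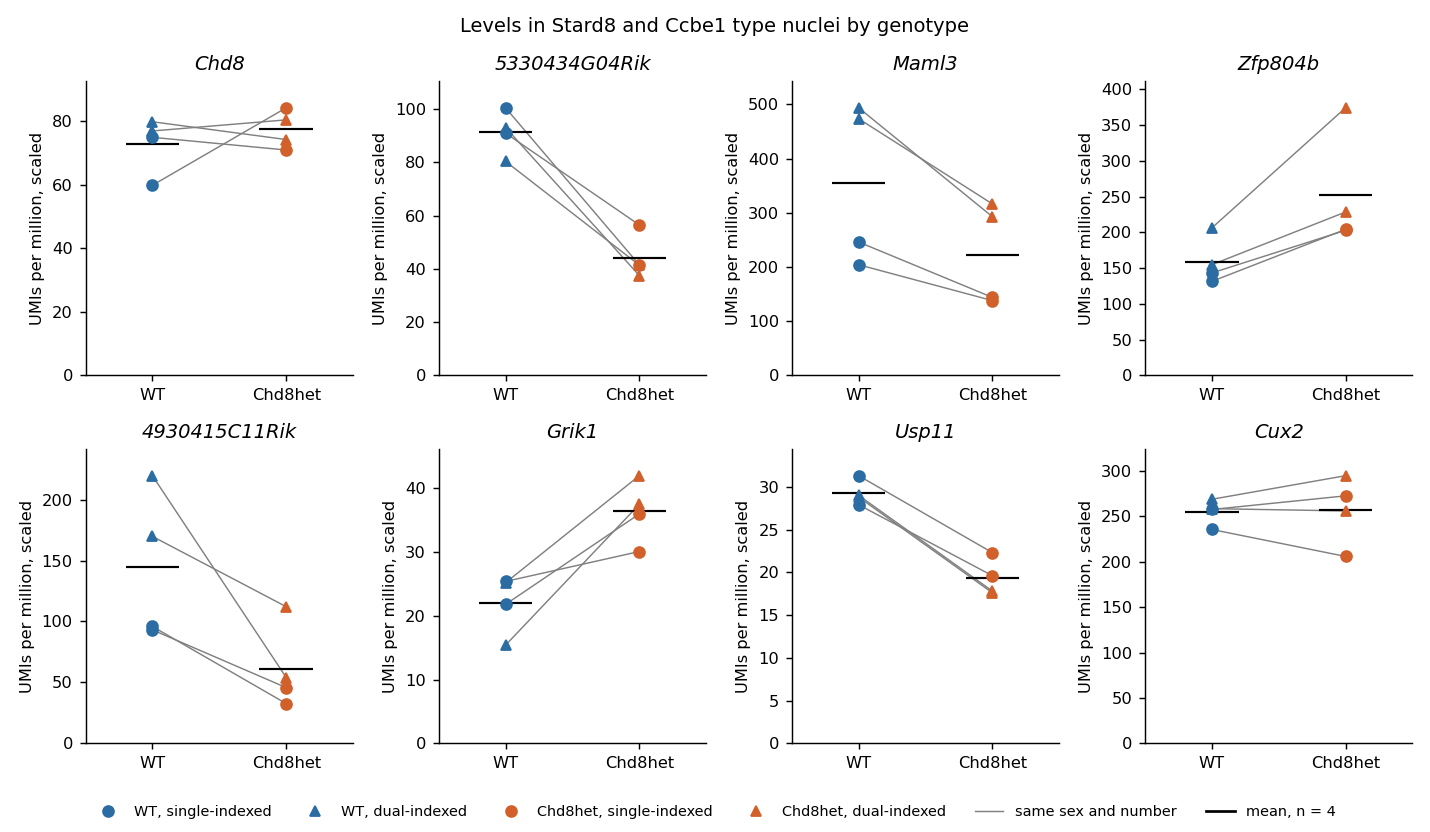
Scaled CPM (y axes, from 0) of 8 genes in the members of WT and Chd8het libraries (x axis), 1 point per library, with lines joining libraries that share sex and number. 5330434G04Rik separates the genotypes (80.4 to 100.5 against 37.5 to 56.5 CPM), Maml3 and 4930415C11Rik are lower and Zfp804b is higher in Chd8het within each of the 4 pairs, and Chd8 and Cux2 go both ways.

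Other genes of small p did not pass on all members in either edgeR fit. The antisense gene 4930415C11Rik lies opposite Ntrk2, the gene of the BDNF receptor, and reads of the pair cannot be told apart, since strandedness is not given in the sources used here. It was at 93.1, 219.6, 95.9 and 169.8 CPM in WT and 45.7, 54.0, 32.6 and 112.1 in Chd8het libraries, overlapping at Chd8het female 2, with a log2 difference of -1.27 with pairs (SE 0.19, edgeR adjusted p = 0.0971). It passed in 7 of 37 settings, among them DESeq2 with pairs (adjusted p = 0.00937) and edgeR with pairs after doublet removal (0.0442). It also passed in edgeR without pairs and without the filter on low counts (4.66e-13). That fit called 22 genes where the same model with the filter called 0. Its log2 difference ran from -1.80 without Chd8het female 2 to -0.55 with the rule after thinning. Usp11, a deubiquitinase gene, was at 27.9 to 31.3 CPM in WT and 17.6 to 22.3 in Chd8het libraries. Grik1, a kainate receptor gene, was at 15.4 to 25.4 and 30.1 to 42.0 CPM, and B4galnt3, a glycosyltransferase gene, at 5.02 to 6.76 and 1.70 to 2.44. Gpc3, a glypican gene, was at 1.25 to 3.69 CPM in WT and 5.49 to 7.67 in Chd8het libraries. These 4 genes did not overlap between genotypes, and each had an adjusted p of 0.230 with pairs. Itgb1bp1, which encodes an integrin-binding protein, was lower in Chd8het in 4 of 4 pairs with overlapping ranges (adjusted p = 0.106 with pairs). The next sentences describe gene lists by how many members of each had an unadjusted p under 0.05 with pairs, against 3.16% of all genes higher and 3.19% lower in Chd8het, with no gene on them passing after adjustment in that fit.

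Of 26 voltage-gated potassium channel and related genes, 1 was higher in Chd8het (Kcnh7) and 4 lower (among them Kcnc2, Kcnd3 and Kcnq3), with a list median of -0.06 on the log2 scale against 0.00 over all genes. Both counts were the same outside clusters 7 and 9 and outside clusters 5, 7 and 9. Kcnc2, a fast delayed rectifier gene, was at 408.6, 452.3, 457.2 and 482.4 CPM in WT and 350.1, 271.4, 373.1 and 410.7 in Chd8het libraries. Its ranges overlapped by 1 library on each side, and Chd8het was lower in 4 of 4 pairs (adjusted p = 0.321 with pairs). Of 22 sodium and calcium channel genes, 1 was higher (Scn1a) and 2 lower (Cacna1c and Cacna2d3). Outside clusters 5, 7 and 9, Cacna2d1 was also higher and the same 2 were lower.

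Receptor genes went both ways. Of 23 glutamate receptor genes 4 were higher (Gria4, Grin3a, Grik1 and Grm4) and 4 lower (Gria1, Grin2a, Grin2b and Grik4). Grin2b, the NMDA receptor subunit gene, was at 2219.5 ± 420.6 CPM in WT and 1856.2 ± 304.4 in Chd8het libraries (n = 4 each), lower in 4 of 4 pairs, with a log2 difference of -0.25 (SE 0.05, edgeR adjusted p = 0.230 with pairs). Of 14 GABA receptor genes none was higher and 2 were lower, among them Gabbr2 (533.8 ± 143.7 and 453.5 ± 119.5).

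Adhesion and guidance genes were found on either side as well. Of 57 adhesion genes 7 were higher (Slitrk2, Tenm2, Tenm3, Cntnap4, Cntnap5b, Cntn6 and Cdh20) and 3 lower (Lrrtm3, Cadm2 and Cdh4). Cntnap4 was at 25.4 to 38.7 CPM in WT and 43.1 to 53.0 in Chd8het libraries, and Cadm2 at 5909.9 to 6758.9 and 5534.7 to 5844.1, neither overlapping (adjusted p = 0.321 and 0.442 with pairs). Of 45 axon guidance genes 5 were higher (Sema6d, Slit2, Ntng1, Unc5d and Epha6) and 5 lower (Sema5b, Robo2, Slit3, Ephb1 and Ephb2). Slit2, a ligand of Robo receptors, was at 163.1, 127.6, 240.3 and 125.8 CPM in WT and 252.1, 196.8, 278.6 and 181.6 in Chd8het libraries. The genotypes overlapped, with Chd8het higher in 4 of 4 pairs (edgeR adjusted p = 0.166 with pairs). It passed in DESeq2 with pairs (adjusted p = 0.0201). The layer 2/3 subtype list had 2 of 15 genes higher (Dpyd and Tox) and 2 lower (Adamts2 and Dgkb), with a median of 0.002. Tox, a transcription factor gene of that list, was at 85.7 ± 23.4 CPM in WT and 129.2 ± 30.1 in Chd8het libraries (n = 4 each, edgeR adjusted p = 0.166 with pairs). It passed in DESeq2 with pairs (0.0134) and in edgeR with pairs after doublet removal (0.0405).

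Of 49 autism-associated genes none was higher and 7 were lower (among them Auts2, Dscam, Foxp1, Grin2b, Katnal2 and Myt1l), with a list median of -0.01. Outside clusters 7 and 9, and outside clusters 5, 7 and 9, 5 of the 49 were lower, and Chd3 was higher in the first of these sets. Dscam was at 728.0 ± 69.9 CPM in WT and 604.3 ± 56.0 in Chd8het libraries (adjusted p = 0.397 with pairs). Of 21 upper-layer genes 1 was higher (Unc5d) and 3 lower (Lhx2, Inhba and Mdga1), and Cux2 was at 255.0 ± 14.0 and 257.2 ± 37.8 CPM. Of 13 deep-layer genes 2 were higher, Bcl11b (21.2 ± 10.3 and 34.9 ± 10.7 CPM) and Vwc2l (14.0 ± 4.85 and 24.0 ± 4.05), with a list median of 0.19. The log2 difference of Bcl11b with pairs was 0.72 (SE 0.21, edgeR adjusted p = 0.472) on all members and 0.34 (SE 0.24, edgeR adjusted p = 0.912) outside clusters 7 and 9. Cluster 9 had 280.0 CPM of Bcl11b, and the part of its share in the Bcl11b difference was not tested. None of the 9 genes of Chd family remodellers had an unadjusted p under 0.05, and 4 of 75 ribosomal protein genes were higher and none lower. Some of these counts moved without the clusters in doubt. Outside clusters 7 and 9, 8 of 74 ribosomal protein genes were higher, 1 of 11 deep-layer genes was higher and 1 lower, 1 of the 9 Chd family genes was higher and 1 lower, and 1 of 14 GABA receptor genes was lower. Outside clusters 5, 7 and 9 these were 7 of 73 ribosomal protein genes, 1 higher and 1 lower of 10 deep-layer genes, none of the Chd family and 2 lower GABA receptor genes. Upper-layer genes lower in Chd8het were then 2 of 21, and 1 of 21 outside clusters 5, 7 and 9.

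Of 7 lists of other-cell markers, 1 did not overlap between the genotypes in members, beside 1.78% of all 12396 single genes. No test was made, and levels in this paragraph are CPM without TMM scaling. The summed oligodendrocyte markers (4 genes, all detected, of which the rule limited Mog) were at 69.8 to 88.8 CPM in WT and 97.3 to 131.7 in Chd8het libraries, with no overlap, against 3233.0 to 5474.6 in non-neuronal nuclei. In Otof and Glra3 type nuclei the genotypes overlapped in this sum, at 82.0 to 110.5 CPM in WT and 90.0 to 130.1 in Chd8het libraries. In members, astrocyte markers were at 164.3 to 279.6 and 199.0 to 391.5 CPM, and interneuron markers at 203.3 to 294.6 and 238.3 to 292.9. The rule also limited Slc1a3 of the astrocyte, Gad1 and Gad2 of the interneuron, Inpp5d of the microglial and Flt1 of the vascular markers. The interneuron sum held Reln (mean 36.8 CPM in members) and Lamp5 (85.4), which is also on the list of subtype genes used above. That sum therefore cannot be read as RNA of interneurons alone. Oligodendrocyte precursor markers were at 6.1 to 18.4 and 12.4 to 30.7 CPM. Microglial markers were at 99.5 to 124.0 and 96.7 to 123.5 CPM, vascular markers at 1.52 to 6.05 and 0.93 to 4.05, and striatal markers at 13.1 to 17.8 and 11.3 to 15.1, each overlapping. No marker on these lists was at 0 in all members. The part of oligodendrocyte RNA in the genotype values was not tested. With pairs, leaving out WT female 2 or Chd8het female 2 gave 10 calls each, and these held the myelin gene Mbp and the glial genes Apoe and Cst3.

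Whether genotype differences in the members differed from those in Otof and Glra3 type nuclei was tested with an interaction term. Of 14086 genes 0 (0%) passed in edgeR, and 577 (4.10%) had an unadjusted p under 0.05. Without Chd8het male 2, the library with an excess of Otof and Glra3 type nuclei, 2 genes passed. 5330434G04Rik was at 98.1, 94.3, 93.5 and 99.3 CPM in the Otof and Glra3 type nuclei of WT and 69.4, 97.5, 53.7 and 60.9 in those of Chd8het libraries. There the genotypes overlapped, through Chd8het male 2, and the interaction was -0.56 on the log2 scale (SE 0.16, edgeR adjusted p = 1.0). Maml3 and Zfp804b had log2 differences with pairs of -0.51 and 0.56 in Otof and Glra3 type nuclei, beside -0.67 and 0.64 in members. The 5 genes with the smallest p for the interaction, none passing with the filter on low counts, were Col5a1, Plxna4os3, Pcsk5, Hgf and Slitrk2. Each but Slitrk2 passed in 1 of 12 settings, the one without that filter, which called 32 genes. Hgf, the growth factor that binds Met, was at 3.38 to 8.57 CPM in members of all libraries, while in Otof and Glra3 type nuclei it was at 3.69 to 8.67 in WT and 10.6 to 14.4 in Chd8het libraries (interaction -1.40, edgeR adjusted p = 1.0).

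Sex was compared in the same fit, with log2 differences as male minus female. The labels of sex held, with Xist at 0 to 0.286 CPM in the 4 male and 700.6 to 1125.2 in the 4 female libraries. Of 12396 genes 6 (0.0484%) passed in edgeR, and these were the sex-linked Xist, Tsix, Uty, Kdm5d, Ddx3y and Eif2s3y. Xist and Tsix overlap on opposite strands and cannot be told apart without strand. With a term for index type 9 genes (0.0726%) passed and 1460 (11.8%) had an unadjusted p under 0.05, and the 3 added genes were the autosomal Utrn, Kirrel3 and Spns2. Each sex held only 2 of the pairs, and these fits count the libraries of a pair as independent. On counts summed per pair, 2 male against 2 female profiles, 5 genes passed, each sex-linked. With a term for index type 455 passed on those sums, where 1 residual degree of freedom is left, and these held Utrn, Kirrel3 and Spns2. Males and females did not overlap for 403 genes (3.25%).

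Utrn (chromosome 10, 12382188 to 12869365, GRCm38), the homologue of dystrophin, was at 25.7, 21.1, 29.8 and 25.3 CPM in WT male 1, WT male 2, Chd8het male 1 and Chd8het male 2. It was at 46.4, 30.5, 71.0 and 50.7 CPM in the females in that order. The sexes did not overlap, and the log2 difference was -0.92 with the index term (SE 0.13, edgeR adjusted p = 0.0165). Kirrel3 (chromosome 9, 34485894 to 35036716), a synaptic adhesion gene, was at 499.0, 724.7, 451.7 and 667.7 CPM in males and 770.7, 916.6, 637.8 and 933.6 in females. Its ranges overlapped, and males were lower within each genotype and index type (-0.49, SE 0.07, edgeR adjusted p = 0.0276). Spns2 (chromosome 11, 72451638 to 72489904), which encodes an exporter of sphingosine-1-phosphate, was at 51.7, 55.7, 51.4 and 54.3 CPM in males and 22.7, 36.8, 30.5 and 26.0 in females, with no overlap (0.87, SE 0.13, edgeR adjusted p = 0.0374). With 1 of the 8 libraries left out, Utrn passed in 4 fits and Kirrel3 and Spns2 in 3 each. The number of genes called then ran from 6 to 282, with 282 without Chd8het female 1, 139 without WT female 2 and 16 without Chd8het female 2. On the 1921 members outside clusters 7 and 9, none of these 3 passed, and the fit with index type called Tmtc1 and Chst8 beside the 6 sex-linked genes. On the 1696 outside clusters 5, 7 and 9 none of the 3 passed either, and Pde4b and Tmtc1 were called beside those 6. On members with both Stard8 and Ccbe1, Utrn passed and Kirrel3 and Spns2 did not.

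Of the label markers that the rule did not use, Cux2, Calb1, Nectin3 and Rasgrf2, none passed for sex in all members. Nectin3 was at 178.5, 104.2, 153.0 and 92.8 CPM in males and 279.6, 188.4, 204.9 and 225.2 in females, in the same order. The sexes did not overlap, and the log2 difference with index type was -0.80 (SE 0.13, edgeR adjusted p = 0.0566). Nectin3 passed on members with both Stard8 and Ccbe1. Calb1 was at 38.5 to 96.6 CPM in males and 79.5 to 132.4 in females (-0.69, SE 0.17, adjusted p = 0.132), and Rorb, which is no label marker, at 64.5 to 242.7 and 141.5 to 364.3 (-1.06, SE 0.22, adjusted p = 0.0986). Each was overlapping between the sexes. Cux2 was at 251.2 in males and 261.1 in females on average.

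**Figure D5:**
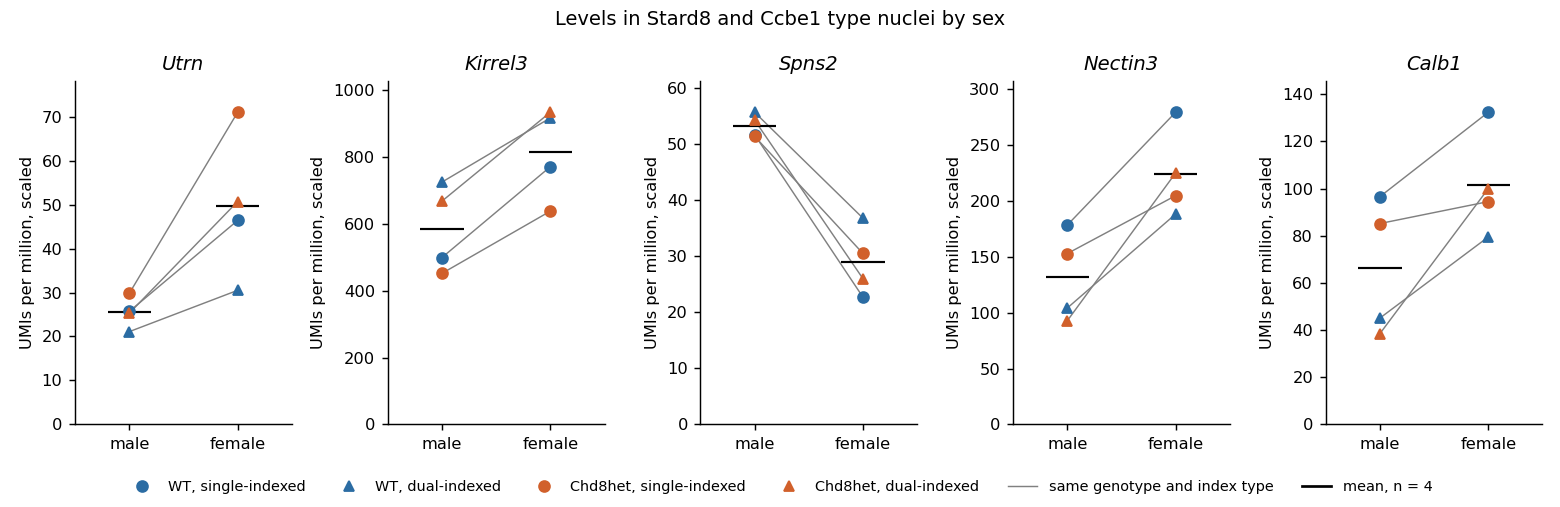
Scaled CPM (y axes, from 0) of Utrn, Kirrel3, Spns2, Nectin3 and Calb1 in the members of male and female libraries (x axis), 1 point per library, with lines joining libraries of the same genotype and index type. Utrn (21.1 to 29.8 against 30.5 to 71.0 CPM), Spns2 (51.4 to 55.7 against 22.7 to 36.8) and Nectin3 (92.8 to 178.5 against 188.4 to 279.6) do not overlap between males and females, and Kirrel3 and Calb1 do.

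Genes induced by neuronal activity leaned to males. Of 18 tested, 10 were higher in males at an unadjusted p under 0.05 with index type (Junb, Egr1, Egr3, Nr4a1, Nr4a3, Arc, Npas4, Homer1, Dusp6 and Per1) and none was lower, against 6.23% and 5.55% of all genes. The list median was 0.58 against -0.01 over all genes, and none passed after adjustment. Without the index term 7 were higher and none lower. Other lists also stood off these shares, with 1 of 9 genes of layer 4 and layer 5 IT neurons higher and 4 lower in males (median -0.36), and 2 of 21 upper-layer genes higher and 5 lower. Nr4a1, an immediate-early nuclear receptor gene, was at 37.6, 43.7, 31.8 and 65.5 CPM in males and 26.7, 27.7, 32.9 and 22.9 in females. Homer1, a postsynaptic scaffold gene, was at 353.5, 444.0, 337.3 and 607.6 CPM in males and 152.1, 375.0, 376.5 and 201.3 in females. Both genes overlapped between the sexes and were highest in Chd8het male 2. Outside clusters 7 and 9, 10 of 17 activity genes were higher in males and none lower, and outside clusters 5, 7 and 9 the count was 9 of 16. In the same fit 6 of 75 ribosomal protein genes were higher in males and none lower, with a list median of 0.25 over all members, and 11 of 73 were higher outside clusters 5, 7 and 9. Median mitochondrial UMIs per member were 0.104% ± 0.0404 in males and 0.0691% ± 0.0176 in females (exact permutation p = 0.2, n = 4 each, 0.48 after adjustment over 12). The part of RNA quality in these values was not tested. The interaction of sex and genotype passed for 0 of 12396 genes (0%) in edgeR, with 95 (0.766%) at an unadjusted p under 0.05. The 5 smallest p were those of Erbb4, Gm765, Ptprz1, L3hypdh and Gabarap (adjusted p = 1.0 for each). Erbb4, a neuregulin receptor gene, was at 46.7 to 64.2 CPM in WT and 84.4 to 98.0 in Chd8het males. In the females it was at 109.3 to 115.5 and 48.5 to 71.7 CPM. It was at 300.8 CPM in cluster 5, and the interaction was not fitted without that cluster. Without the filter on low counts 8 genes passed, among them Erbb4, Ptprz1 and the leading cluster 5 genes Bcas1os2 and Tcf7l2.

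More genes of the members passed for index type than for genotype or sex. With index type in the model, 1915 of 12396 genes (15.4%) passed, 1111 higher (8.96%) and 804 lower (6.49%) in dual-indexed libraries. Both libraries of a pair share an index type, and as for sex this fit counts them as independent. Among label markers, Calb1 (log2 difference -0.69, edgeR adjusted p = 0.0170) and Nectin3 (-0.47, adjusted p = 0.0308) were lower with dual indexing, while Cux2 (0.15, adjusted p = 0.318) did not pass. Rorb fell by 1.07 (adjusted p = 0.00713) and Tshz2, a deep-layer gene, rose by 2.00 (0.000327). Of 45 axon guidance genes 17 were higher and 4 lower, of 23 glutamate receptor genes 8 and 2, and of 13 deep-layer genes 4 and 0. Of 75 ribosomal protein genes none was higher and 21 were lower, with a list median of -0.46 against -0.01 over all genes. Median mitochondrial UMIs per member were 0.0671% ± 0.0268 in dual-indexed and 0.106% ± 0.0322 in single-indexed libraries (exact permutation p = 0.143, 0.429 after adjustment over 12). The part of RNA quality in the index values was not tested. Ccbe1-only members made up 32.6% ± 4.61 in dual-indexed and 22.2% ± 7.28 in single-indexed libraries (SD, n = 4 each), given with no test since the rule used both genes. Each group of genotype and sex had 1 library of each index type, so animals, litters and index type cannot be told apart here.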

How the data were processed

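The authors deposited raw UMI counts per gene and barcode for 8 libraries, whole numbers, with barcodes already limited (97772). The submitters' processing notes name STAR 2.7.9a, STARsolo, Cell Ranger and mm10. Barcode calling, annotation, strandedness and use of intron reads are not given in the sources used here. Gene positions came from GENCODE M21 (GRCm38), which matched 32235 of 32285 identifiers, and were used as names and coordinates only.

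From these deposited counts, nuclei were kept and members chosen by the rule above, and their counts were summed per library. The members and gene lists were chosen with earlier results of these data known. Summed counts were tested with edgeR 4.0.16 (R 4.3.3) quasi-likelihood F tests, two-sided, with TMM scaling, the edgeR filter on low counts (minimum count 10) and Benjamini-Hochberg adjustment over all genes tested, a gene passing at adjusted p under 0.05. SE were derived from the F statistic. The model held sex and genotype. Alternatives were pairs, an index type term, DESeq2 1.42.0, other scaling and filters, other member thresholds, and each library left out. Shares and depths were compared by exact permutation (scipy 1.17.1).

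Genes named were the label markers, Chd8, those called with or without pairs (with the 5 smallest p where under 5 were called), up to 4 per list by p and by level, and for comparisons of nuclei those with the greatest smallest difference of log2(CPM + 1) over libraries. Genes named for the unadjusted counts, Nectin3, Calb1 and Rorb by sex, Tmtc1, Chst8, Pde4b, Tox, Chd3, Mbp, Apoe, Cst3 and Dscaml1 were chosen after their values were seen. Some genes of these lists are counted but not reported by name here.

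Doublets were predicted with Scrublet (scanpy 1.11.5, expected 0.8% per 1000 nuclei) and kept, and their removal was an alternative. Members were clustered on 1491 genes, 15 principal components, 15 neighbours and resolution 0.6.

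The labels state litter- and sex-matching but not which libraries form a pair. Those of the same sex and replicate number deviated together from their genotype means over 10554 genes (r = 0.489, 0.614, 0.523 and 0.318) and were taken as pairs. Male with female libraries of 1 index type gave r of 0.14, 0.257, 0.234 and 0.01, so this check cannot tell litter from index type. Libraries of 1 group differed beyond counting noise (chi-square per degree of freedom 7.49 to 13.3).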

Additional observations from a re-analysis of the deposited data

Results flagged for a closer look

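Of 46 groups of 4 libraries examined, 4 held 1 library far from the other 3, judged by its gap to the nearest over the range of the group (Dixon's test at the 95% level). Chance gives about 1 in 20. The share of members among excitatory nuclei was 6.85% in Chd8het female 2 and 4.23% to 4.44% in the other Chd8het libraries. Zfp804b was at 374.4 CPM in Chd8het male 2 and 203.0 to 228.6 in the others of its genotype. B4galnt3 was at 6.76 CPM in WT female 1 against 5.02 to 5.14 in the other WT libraries, and Gpc3 at 3.69 CPM in the same library against 1.25 to 1.52. The causes were not tested.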

How the results depend on the processing

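The replicate block, a term for each pair, moved the genotype count from 0 to 3 (1 higher, 2 lower). An index type term gave 2, DESeq2 gave 1, DESeq2 with the block 10, and no filter on low counts 22. With the block, leaving out clusters 7 and 9 gave 4, leaving out 5, 7 and 9 gave 3, both-marker members 5 and doublet removal 5. Leaving out 1 library gave 0 throughout without the block and 0 to 10 with it, 10 without WT female 2 or Chd8het female 2 and 1 without Chd8het male 1; there the other library of the pair no longer bears on genotype. Alternatives with a further change beside the block or index type, and those on clusters 5, 7 and 9 or both-marker members, were chosen after seeing the data. The causes were not tested. With no filter on low counts 24550 genes were tested for genotype. With the block the share difference was -0.417 (exact sign-flip p = 0.625) and that of median UMIs -201.1 (p = 0.500), where 4 pairs allow no p under 0.125. For sex no block was fitted, since the pairs lie within a sex. Counts summed per pair, added after seeing the data, gave 5 sex calls, and 455 with index type on 1 residual degree of freedom. The 6 sex calls became 11 with DESeq2, 212 with no filter and 3 with the rule after thinning, which left fewer genes. They stayed 6 with each library left out. With index type (9 calls) both-marker members gave 15, and leaving out 1 library gave 6 to 282, of which 139 without WT female 2, 282 without Chd8het female 1 and 16 without Chd8het female 2. No filter gave 8 calls for sex by genotype and 32 for genotype by type. The latter had 0 to 2 with 1 library left out, 2 without Chd8het male 2. The share difference turned to 0.0328 after thinning and ranged from -1.04 to -0.0912 with 1 library left out. Median UMIs per member turned to 350.6 with at least 4 UMIs of Stard8 and Ccbe1, and ranged from -957.8 to 300.8 with 1 library left out, turning at 300.8 (without WT female 2), 7.54 (Chd8het male 1) and 201.2 (Chd8het female 1). The Chd8 log2 difference turned to -0.006 without WT male 1, and to -0.037 with the block without WT male 1 or Chd8het male 1, and ranged up to 0.32 with the rule after thinning and, with 1 library left out, to 0.154 without WT male 2 (0.156 with the block). Over 770 fits of 29 named genes under their tests, 698 kept their side of the threshold and direction, 68 newly passed, 1 no longer passed (Eif2s3y, 0.0512 on pair sums) and these 3 turned. Depth limits low genes such as Gpc3, with few UMIs per library. All these p-values rest on 8 animals. Fits for sex or index type on the 8 libraries count the libraries of a pair as independent.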
